A study of Mus musculus with 6 samples.

Results

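Among the C-type lectin genes of the Dectin and Mincle families, Clec7a (Dectin-1), Clec4d (MCL) and Clec4e (Mincle) had lower RNA levels in liver macrophages of Lyz2Cre/+.Egr2fl/fl mice than in those of Egr2fl/fl mice, by 1.60-fold, 1.49-fold and 1.81-fold in mean TPM (n = 3 mice per genotype). The other 7 genes, among them Clec4n (Dectin-2), the DCIR genes Clec4a1, Clec4a2 and Clec4a3, and the signalling adaptor Card9, did not pass the test. Of all genes tested, 1.87% were called lower in the same comparison (limma on log2(TPM + 1), adjusted p below 0.05). The 10 genes were picked by symbol as receptors of these families together with Card9. The choice was made with earlier results of these data known, so the share of them that fell is no test of these families. All 10 were among the 13886 genes of the expression table, and all 10 passed the filter that 13777 genes passed, a mean of 1 TPM or more (a level scaled for gene length and for the size of the library).

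The libraries came from macrophages sorted from the liver as CD11b+ Ly6G- Ly6C-low F4/80+ cells. All mice were fed CDA-HFD, a choline-deficient high-fat diet with defined amino acids used to model MASH, the inflamed and scarring form of metabolic fatty liver disease. In Egr2fl/fl mice both copies of Egr2 are flanked by loxP sites and stay intact, and no Cre is present. Lyz2Cre/+.Egr2fl/fl mice carry in addition 1 Cre gene placed in the Lyz2 locus, which is active in monocytes, macrophages and neutrophils. An effect of Cre, or of the Lyz2 copy that carries it, cannot be told apart from an effect of Egr2 loss. The labels give neither the age and sex of the mice nor the weeks of diet. The study describes the control mice as littermates and the mice on this diet as young males, and the strain background of the floxed line is not given in the sources used here. The question put to these libraries was which genes differ between liver macrophages with and without Egr2.

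C-type lectin receptors are surface proteins of myeloid cells that bind sugars and lipids of microbes and of damaged cells. Dectin-1 signals through a tyrosine motif in its own tail, while Dectin-2, Mincle and MCL signal through the paired chain FcR-gamma. Both routes recruit the kinase Syk and then the adaptor CARD9, which joins BCL10 and MALT1 to switch on NF-kB. DCIR1 (Clec4a2) and MICL (Clec12a) carry inhibitory motifs that recruit phosphatases. Macrophages of fatty and injured liver and adipose tissue are known to carry Mincle and Dectin-1, and in the study Mincle served, together with CD11c, as a surface marker in a separate sort. The libraries described here were not sorted on either marker. By flow cytometry the study also reported less CD11c and Mincle on monocyte-derived liver macrophages of Lyz2Cre/+.Egr2fl/fl mice than of Egr2fl/fl mice. It also reported a smaller share of cells high in both markers among these macrophages. Those are measures of protein at the surface, while the values here are RNA levels. Clec4d and Clec4e also belong to a gene list that the study derived from other, single-cell data for hepatic lipid-associated macrophages.

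Clec7a, Clec4d and Clec4e lie on chromosome 6, like all members but Card9. Their promoters from RefSeq (GRCm38.p6), from 250 bases before to 50 bases after the start site, are shown because these are the members that fell. They are at chr6:129472730-129473029 on the minus strand for Clec7a, at chr6:123261857-123262156 on the plus strand for Clec4d and at chr6:123289822-123290121 on the minus strand for Clec4e. Capitals mark, on either strand, the PU.1 core GAGGAA, read TTCCTC on the other strand, and in Clec4e also a C/EBP motif TTGCNNAA, read TTGTGCAA.
Clec7a: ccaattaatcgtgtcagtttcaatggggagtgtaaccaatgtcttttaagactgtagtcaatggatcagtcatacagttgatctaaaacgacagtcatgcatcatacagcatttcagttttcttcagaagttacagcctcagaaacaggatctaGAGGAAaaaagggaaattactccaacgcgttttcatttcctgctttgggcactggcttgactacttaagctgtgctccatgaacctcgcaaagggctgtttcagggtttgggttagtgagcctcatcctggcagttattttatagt
Clec4d: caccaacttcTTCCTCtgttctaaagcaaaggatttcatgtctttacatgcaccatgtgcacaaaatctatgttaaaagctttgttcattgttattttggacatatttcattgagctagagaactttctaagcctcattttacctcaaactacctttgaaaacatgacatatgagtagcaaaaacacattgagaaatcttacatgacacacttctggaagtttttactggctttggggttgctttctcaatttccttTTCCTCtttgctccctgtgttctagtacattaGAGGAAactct
Clec4e: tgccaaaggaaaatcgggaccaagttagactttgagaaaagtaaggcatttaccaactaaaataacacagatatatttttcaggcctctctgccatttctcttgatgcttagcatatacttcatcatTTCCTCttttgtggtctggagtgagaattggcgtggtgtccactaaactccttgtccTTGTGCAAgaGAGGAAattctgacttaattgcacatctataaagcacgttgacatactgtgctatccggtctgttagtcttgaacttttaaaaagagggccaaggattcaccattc
RefSeq gave such a promoter for 9 of the 10 members. The PU.1 core was in 6 of the 9, namely Clec7a, Clec4d, Clec4e, Clec4a1, Clec5a and Clec12a, and in 28.3% of all 27025 promoters of this length. In Clec7a its 1 match began at position -96, counted from the start site. Clec4d held 3 matches, at -240, 7 and 39, and Clec4e held 2, at -123 and -56, the second following a C/EBP match that began at -66. The C/EBP motif was in Clec4e and Clec12a and in 10.8% of all promoters. An AP-1 motif TGANTCA was in Clec4a2 and Clec12a and in 7.93% of all promoters. The EGR motif GCGTGGGNG and a NF-kB motif had 0 matches in the 9 promoters, against 1.84% and 1.62% of all promoters. The motifs do not contain one another. The 6 promoters with the PU.1 core include 3 of members that did not pass the test. A match describes these letters only.

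Egr2, the deleted gene, was at 122.6, 120.2 and 126.1 TPM in Egr2fl/fl replicates 1 to 3 and at 9.08, 9.64 and 10.5 TPM in Lyz2Cre/+.Egr2fl/fl replicates 1 to 3, so every library matched its label. The mean of the CD11c gene Itgax went from 456.6 ± 34.2 TPM down to 174.1 ± 8.72 TPM (SD, n = 3), with a limma adjusted p of 0.00029. Reads recovered from the TPM steps came to at least 6497770 per library. General macrophage genes were abundant in all libraries, and Cd3e, which defines T cells, and Ly6g, which defines neutrophils, were not among the 13886 genes. Of 16 genes of T, NK and B cells 6 were in the table, with summed levels of 38.3 to 54.2 TPM in Egr2fl/fl and 59.7 to 67.0 TPM in Lyz2Cre/+.Egr2fl/fl. Most of this was Cd79b, a B cell gene that rose from 37.8 ± 6.57 to 57.4 ± 4.15 TPM (SD over 3 libraries, limma adjusted p = 0.0431), while the NK cell gene Klrb1c fell (limma adjusted p = 0.0463). When single libraries were left out, Cd79b passed only without Egr2fl/fl replicate 1 (limma adjusted p = 0.0367) and Klrb1c in no case (0.0852 to 0.153). Of the 13 hepatocyte genes 0 passed by limma (0 had an unadjusted p under 0.05), and they summed to 768.9 TPM in Egr2fl/fl replicate 3 and to 100.2 to 302.6 TPM in the other 5 libraries. Of 12 Kupffer cell genes 11 were higher in Lyz2Cre/+.Egr2fl/fl (summed level 2196 to 2809 against 5959 to 7309 TPM), of 11 genes of lipid-associated macrophages 8 were lower (8176 to 8647 against 5935 to 6494 TPM), and all 19 endothelial genes tested of a list of 20 were higher (176.2 to 206.4 against 816.7 to 917.5 TPM). Their part in the results below was not tested. In these bulk samples, fewer cells of a type and less RNA per cell cannot be told apart. Timd4 was the Kupffer cell gene that did not pass, though its libraries were apart and higher in Lyz2Cre/+.Egr2fl/fl. In separate experiments, by flow cytometry and single-cell sequencing, the study reported that resident Kupffer cells were scarce in mice of either genotype on this diet.

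Clec7a, the receptor for beta-glucans of fungi, was the most abundant of the 10 genes in every library. It was at 1366, 1375 and 1331 TPM in the Egr2fl/fl libraries and at 838.0, 865.2 and 836.3 TPM in those of Lyz2Cre/+.Egr2fl/fl. The groups lay far apart compared with the spread within them, with coefficients of variation of 1.71% and 1.92%. The mean fell from 1357 ± 23.2 to 846.5 ± 16.2 TPM (SD, n = 3), and the log2 difference was -0.68 ± 0.04 (SE, 95% interval -0.77 to -0.59, limma adjusted p = 0.000327). By p it was the 19th of all 13777 genes tested. The values rest on at least 43973 reads over the 6 libraries. In the table of all genes ordered by mean level, Clec7a was at place 86 in Egr2fl/fl and at place 159 in Lyz2Cre/+.Egr2fl/fl. The call held in all 16 alternative analyses, with log2 differences between -0.74 and -0.67.

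Clec4e encodes Mincle, a receptor for mycobacterial glycolipids and for a nuclear protein released by dying cells. Its levels were 173.0, 147.2 and 230.8 TPM in Egr2fl/fl and 113.4, 104.7 and 86.4 TPM in Lyz2Cre/+.Egr2fl/fl. Every Lyz2Cre/+.Egr2fl/fl library was below every Egr2fl/fl library, and the Egr2fl/fl libraries were spread widely, with replicate 3 the highest. The mean fell from 183.7 ± 42.8 to 101.5 ± 13.8 TPM (SD, n = 3), with a log2 difference of -0.83 ± 0.17 (SE, 95% interval -1.24 to -0.43, limma adjusted p = 0.0352). The call was fragile. With 1 library left out it remained only without Egr2fl/fl replicate 2 (limma adjusted p = 0.0297). Without Egr2fl/fl replicate 1 or 3, or without Lyz2Cre/+.Egr2fl/fl replicate 1, 2 or 3, the adjusted p was 0.0924, 0.0533, 0.0719, 0.0823 and 0.109, while the log2 difference stayed between -0.98 and -0.66. Egr2fl/fl replicate 3 is also the library with the highest hepatocyte sum, given above, and the part of this in the result was not tested.

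Clec4d encodes MCL, a close relative of Mincle that pairs with it at the surface. Clec4d was at 266.8, 273.0 and 327.0 TPM in Egr2fl/fl and at 195.7, 210.9 and 173.9 TPM in Lyz2Cre/+.Egr2fl/fl. The groups did not overlap, and as for Clec4e the highest library was Egr2fl/fl replicate 3 and the lowest Lyz2Cre/+.Egr2fl/fl replicate 3. The mean fell from 288.9 ± 33.1 to 193.5 ± 18.6 TPM (SD, n = 3), with a log2 difference of -0.57 ± 0.10 (SE, 95% interval -0.81 to -0.34, limma adjusted p = 0.0195). Without Lyz2Cre/+.Egr2fl/fl replicate 1 or replicate 3 the adjusted p was 0.0699 and 0.0584, with log2 differences of -0.58 and -0.50. Without Egr2fl/fl replicate 3 they were 0.0392 and -0.48.

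**Figure D1:**
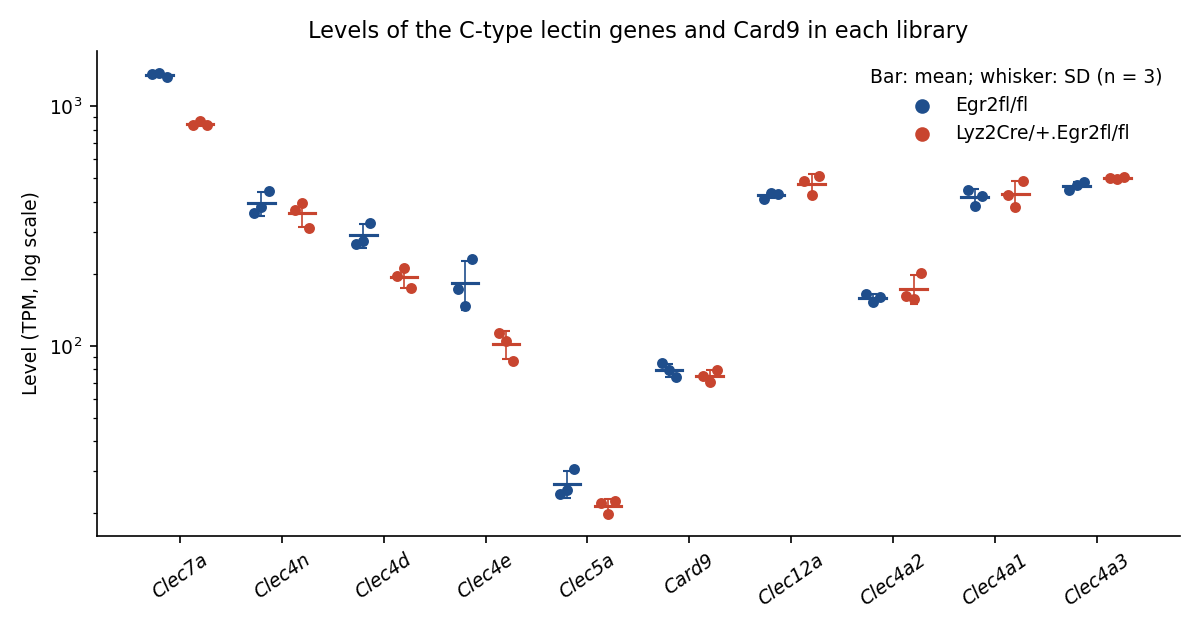
Level of each gene in TPM (log axis) in the 3 Egr2fl/fl libraries (blue) and the 3 Lyz2Cre/+.Egr2fl/fl libraries (red), with the mean as a bar and the SD as a whisker. Clec7a stands above all others in both genotypes, and the red points of Clec7a, Clec4d, Clec4e and Clec5a lie below all blue points of the same gene. Clec5a did not pass the test.

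Clec4n encodes Dectin-2, a receptor for mannans of yeast. It lies 15.1 kb from Clec4d. It was at 358.5, 378.7 and 442.8 TPM in Egr2fl/fl and at 368.9, 392.9 and 310.1 TPM in Lyz2Cre/+.Egr2fl/fl. The ranges overlapped, and the log2 difference was -0.14 ± 0.11 (SE, 95% interval -0.40 to 0.12, limma adjusted p = 0.564). The interval includes both no difference and a fall of 0.40 on the log2 scale. Clec5a (MDL-1), which signals through the chain DAP12, was the lowest of the 10 genes, at 24.1, 25.1 and 30.6 TPM in Egr2fl/fl and at 22.1, 19.9 and 22.4 TPM in Lyz2Cre/+.Egr2fl/fl. Its ranges were apart, with a log2 difference of -0.29 ± 0.11 (SE, 95% interval -0.55 to -0.03), but it did not pass the threshold over all genes (limma adjusted p = 0.213).

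Clec12a (MICL), an inhibitory receptor for uric acid crystals, was at 411.5, 432.9 and 428.4 TPM in Egr2fl/fl and at 488.9, 427.6 and 511.7 TPM in Lyz2Cre/+.Egr2fl/fl. Lyz2Cre/+.Egr2fl/fl replicate 2 lay within the Egr2fl/fl range, and the log2 difference was 0.16 ± 0.07 (SE, 95% interval -0.01 to 0.33, limma adjusted p = 0.271). Clec4a2 (DCIR1), which carries an inhibitory motif, was at 164.2, 152.1 and 160.3 TPM in Egr2fl/fl and at 161.3, 157.5 and 200.5 TPM in Lyz2Cre/+.Egr2fl/fl. Only replicate 3 of Lyz2Cre/+.Egr2fl/fl exceeded the Egr2fl/fl range (log2 difference 0.11 ± 0.10, SE, 95% interval -0.11 to 0.34, limma adjusted p = 0.590). Clec4a2 shared 97 of its 2407 windows of 75 bases (4.03%) with its neighbours Clec4a4 and Clec4b1, so some of its reads could belong to them. The other 9 members shared 0 windows with any other gene.

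Clec4a1 (DCIR4) and Clec4a3 (DCIR3) have no inhibitory motif of this kind. Clec4a3 was at 449.0, 470.1 and 481.7 TPM in Egr2fl/fl and at 502.7, 496.1 and 504.6 TPM in Lyz2Cre/+.Egr2fl/fl. It was the only member whose Lyz2Cre/+.Egr2fl/fl libraries were all above the Egr2fl/fl libraries, by a log2 difference of 0.10 ± 0.04 (SE, 95% interval from just under 0 to 0.21) that did not pass (limma adjusted p = 0.264). Clec4a1 was at 449.4, 383.7 and 423.8 TPM in Egr2fl/fl and at 427.5, 378.1 and 488.5 TPM in Lyz2Cre/+.Egr2fl/fl, with overlapping ranges (log2 difference 0.04 ± 0.10, SE, 95% interval -0.20 to 0.28, limma adjusted p = 0.891). Its sign changed when TPM were rescaled by median-of-ratios factors (-0.02), without Egr2fl/fl replicate 2 (-0.02) and without Lyz2Cre/+.Egr2fl/fl replicate 3 (-0.06).

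Card9, the adaptor shared by the activating receptors, lies on chromosome 2 (26352176 to 26360918, minus strand, GRCm38). It was at 84.3, 78.8 and 74.3 TPM in Egr2fl/fl and at 74.6, 70.6 and 79.5 TPM in Lyz2Cre/+.Egr2fl/fl, and the ranges overlapped (log2 difference -0.08 ± 0.07, SE, 95% interval -0.25 to 0.09, limma adjusted p = 0.637). A noncoding gene on the opposite strand, Gm13562, overlaps Card9 and was at 10.9 and 10.8 TPM in the genotypes. Whether reads were counted by strand is not given in the sources used here, and the labels and the methods of the study differ on the library kit. Reads of the pair could thus be mixed. Of the 1873 windows of 75 bases in the longest Card9 transcript, 0 were shared with another gene on either strand. Shorter overlaps and the extent of any mixing were not tested.

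**Figure D2:**
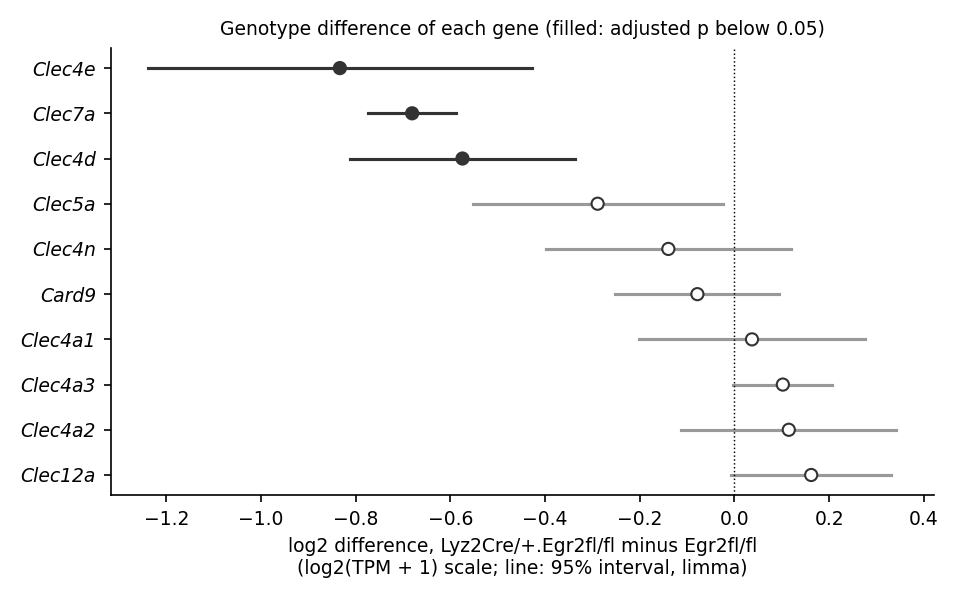
Log2 difference of each gene between Lyz2Cre/+.Egr2fl/fl and Egr2fl/fl with its 95% interval from limma, on the log2(TPM + 1) scale; filled points passed an adjusted p of 0.05. Clec4e, Clec7a and Clec4d are the filled points, at -0.83, -0.68 and -0.57, and 6 of the other 7 intervals include 0.

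In all, 3 of the 10 members (30%) fell, 0 rose and 7 did not pass. The members were chosen with earlier results of these data known, so this share is a description and carries no test. No member was called higher by voom on recovered reads either. Over all tested genes 1.87% fell and 4.38% rose, and at an unadjusted p under 0.05 the count of members was 4, with Clec5a the additional one. The ranges of the genotypes were apart for 5 members, 4 lower (Clec7a, Clec4d, Clec4e and Clec5a) and 1 higher (Clec4a3), where 8.27% and 17.0% of all tested genes were apart in these directions. The median log2 difference of the members was -0.11, against 0.04 over all tested genes. With 1 library left out at a time, the number of members that fell was between 1 and 3. It was 1, Clec7a alone, without Lyz2Cre/+.Egr2fl/fl replicate 1 or replicate 3.

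TPM are per length, so levels of different genes can be compared within a library. In Egr2fl/fl the order was Clec7a, Clec4a3, Clec12a, Clec4a1, Clec4n, Clec4d, Clec4e, Clec4a2, Card9 and Clec5a. The libraries of Clec12a and Clec4a1, of Clec4a1 and Clec4n, and of Clec4e and Clec4a2 overlapped, and all other neighbours in this order were apart. In Lyz2Cre/+.Egr2fl/fl the first 6 genes kept these places, and Clec4e moved below Clec4a2, from which its libraries were now apart. Here the ranges of Clec4a3, Clec12a, Clec4a1 and Clec4n overlapped from one to the next, as did those of Clec4d and Clec4a2. The summed level of the 9 lectin genes was 3719 ± 119.8 TPM in Egr2fl/fl and 3102 ± 43.2 TPM in Lyz2Cre/+.Egr2fl/fl (SD, n = 3). Clec7a made up 36.5% ± 1.77 of it in Egr2fl/fl and 27.3% ± 0.909 in Lyz2Cre/+.Egr2fl/fl.

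Ratios within a library do not depend on how libraries are scaled to each other. Clec4d per Clec4n was 0.74, 0.72 and 0.74 in Egr2fl/fl and 0.53, 0.54 and 0.56 in Lyz2Cre/+.Egr2fl/fl. These ratios were tighter than the levels of either gene, and the groups were well apart. Clec4e per Clec4n fell from 0.46 ± 0.07 to 0.28 ± 0.02 without overlap (SD, n = 3), whereas Clec4e per Clec4d overlapped, at 0.63 ± 0.08 and 0.52 ± 0.05. Clec7a per Clec12a was 3.20 ± 0.109 in Egr2fl/fl and 1.79 ± 0.206 in Lyz2Cre/+.Egr2fl/fl, again apart. Clec7a per Clec4d (4.74 ± 0.583 and 4.40 ± 0.367) and Clec7a per Clec4e (7.67 ± 1.80 and 8.44 ± 1.16) overlapped. Against Itgax, Clec7a was higher, at 2.98 ± 0.179 in Egr2fl/fl and 4.87 ± 0.202 in Lyz2Cre/+.Egr2fl/fl. Itgax fell by more than Clec7a did. The activating receptors among the members, Clec7a, Clec4d, Clec4e, Clec4n and Clec5a, summed to 2250 ± 97.5 and 1520 ± 83.7 TPM, apart. Clec7a alone, at means of 1357 and 846.5 TPM, made up most of that fall, and Clec4n and Clec5a did not pass. The sum leaves out Clec4b1 and Clec1b, described below, which rose. The inhibitory pair Clec4a2 and Clec12a summed to 583.1 ± 6.69 and 649.2 ± 63.6 TPM, which overlapped. These ratios and sums are descriptions and carry no test.

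**Figure D3:**
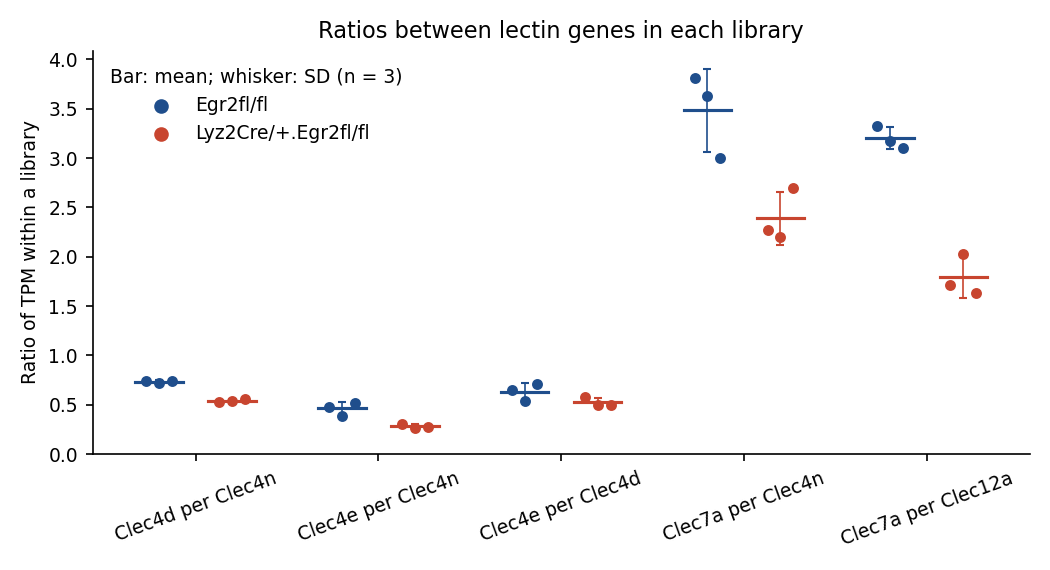
Ratio of the TPM of 2 lectin genes within each library, for Egr2fl/fl (blue) and Lyz2Cre/+.Egr2fl/fl (red), with mean (bar) and SD (whisker), n = 3. The ratios to Clec4n and Clec12a are lower in every red library than in every blue one, while Clec4e per Clec4d overlaps.

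Members that fell and members that did not pass were neighbours on the chromosome. The Dectin-2 cluster on chromosome 6 was taken here as the 368.0 kb from Clec4a1 to Clec4e (122921848 to 123289870, GRCm38), with ends set by these members. GENCODE vM21 annotates 9 lectin genes in it, of which 8 were in the table. The 2 that fell, Clec4d (123262111 to 123275265, plus strand) and Clec4e (123281789 to 123289870, minus strand), lie side by side at its end with 6.52 kb between them. One gene rose, Clec4b1 (DCAR), an FcR-gamma-coupled receptor that was named here after its values were seen. It was at 120.3, 127.0 and 113.8 TPM in Egr2fl/fl and at 172.0, 148.1 and 178.6 TPM in Lyz2Cre/+.Egr2fl/fl (log2 difference 0.46 ± 0.08, SE, limma adjusted p = 0.0220). With 1 library left out, the rise passed only without Egr2fl/fl replicate 2 or Lyz2Cre/+.Egr2fl/fl replicate 2, and the adjusted p without another library reached up to 0.0911. The remaining 5 genes, Clec4a1, Clec4a3, Clec4a4, Clec4a2 and Clec4n, did not pass.

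The Dectin-1 cluster was taken here as the 130.1 kb from Clec12a to Clec7a (129342691 to 129472779), with ends set by these members. Clec7a (129461591 to 129472779, minus strand) is listed by GENCODE vM21 as a polymorphic pseudogene. Of the 6 lectin genes annotated in this stretch 5 were in the table. Clec7a fell and Clec1b (CLEC-2), a platelet and Kupffer cell receptor for podoplanin that also has a tyrosine motif of the Dectin-1 kind, rose by 1.20 on the log2 scale (limma adjusted p = 0.00029). Clec12a, Clec9a and Clec1a did not pass. GENCODE vM21 places Olr1, the receptor LOX-1 for oxidised lipoproteins, 12.5 kb beyond Clec7a. It is therefore outside the stretch taken here and not among the genes counted for it. Olr1 was at 25.7, 20.3 and 32.7 TPM in Egr2fl/fl and at 9.11, 9.54 and 9.18 TPM in Lyz2Cre/+.Egr2fl/fl. Its libraries were apart, and it fell by 1.38 on the log2 scale ± 0.17 (SE, limma adjusted p = 0.00479).

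**Figure D4:**
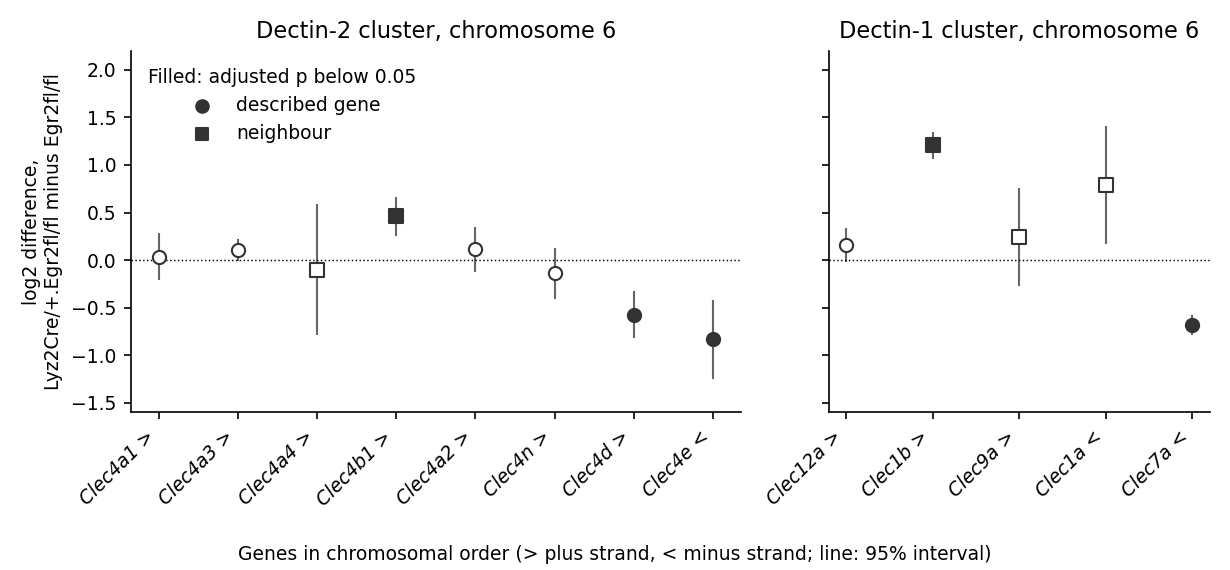
Log2 difference between Lyz2Cre/+.Egr2fl/fl and Egr2fl/fl, with 95% intervals from limma, for the lectin genes of the table in the Dectin-2 and Dectin-1 clusters in their order along chromosome 6; circles are the described genes, squares their neighbours, and filled symbols passed an adjusted p of 0.05. Clec4d, Clec4e and Clec7a lie below 0, and Clec4b1 and Clec1b above it. Olr1, beyond the end taken for the Dectin-1 cluster, is not shown.

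Of 25 other C-type lectins that were tested, from a list of 37, 8 rose, 1 fell (Olr1) and 16 did not pass. Over the alternative analyses the number that rose was between 5 and 11. Over all tested genes 4.38% rose and 1.87% fell. The list was not limited to lectins of myeloid cells. The median log2 difference of the 25 was 0.46. Those that rose with the smallest p were Clec1b, Clec4g, Mrc1, Clec14a and Cd207. The mannose receptor gene Mrc1 was at 186.8 ± 10.7 TPM in Egr2fl/fl and 1.77-fold higher, at 331.2 ± 10.9 TPM, in Lyz2Cre/+.Egr2fl/fl (SD, n = 3), with a limma adjusted p of 0.000547. Clec4g and Clec14a also stand on the endothelial list and Cd207 on the Kupffer cell list, both of which were higher as given above. Mrc1 stands on neither list, and the part of such cells in its rise was not tested. The adjusted p of Clec4g was 0.000333, that of Clec14a 0.000568 and that of Cd207 0.00326 (limma). Clec4f, which also rose (limma adjusted p = 0.0146), stands on the Kupffer cell list too. With 1 library left out, Clec4f did not pass without Lyz2Cre/+.Egr2fl/fl replicate 1 or 2.

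Downstream of the receptors most genes did not pass, as was so over all tested genes. Of those, 6.24% were called in either direction, 4.38% higher and 1.87% lower. Of 17 receptor adaptors and proximal kinases 3 rose, 1 fell and 13 did not pass. Their median log2 difference was 0.10. The Src family kinase Fyn rose from 42.0 ± 5.64 to 60.7 ± 1.59 TPM, its relative Lyn from 419.4 ± 23.9 to 523.3 ± 25.1 TPM and the adaptor Lcp2 (SLP-76) from 166.4 ± 5.76 to 215.0 ± 21.6 TPM, SD over 3 libraries each. Their limma adjusted p were 0.0248, 0.0248 and 0.0413. Prkcd, protein kinase C delta, which phosphorylates CARD9, fell from 545.6 ± 44.0 to 425.8 ± 12.6 TPM (limma adjusted p = 0.0254). The shared chains and Syk did not pass. Fcer1g (FcR-gamma) was at 1933 ± 66.6 and 2069 ± 21.6 TPM, Tyrobp (DAP12) at 2681 ± 47.9 and 2767 ± 24.8 TPM and Syk at 277.8 ± 22.3 and 302.6 ± 39.7 TPM, with limma adjusted p of 0.258, 0.584 and 0.613. The 4 calls were fragile. With 1 library left out, Fyn passed only without Egr2fl/fl replicate 1, Lyn only without Egr2fl/fl replicate 2 or Lyz2Cre/+.Egr2fl/fl replicate 2, Lcp2 only without Lyz2Cre/+.Egr2fl/fl replicate 3 and Prkcd only without Egr2fl/fl replicate 3, and without the other libraries the adjusted p reached up to 0.126.

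Of 19 genes of the CARD9 complex and NF-kB 0 rose, 1 fell and 18 did not pass, where 4.38% of all tested genes rose and 1.87% fell. Their median log2 difference was -0.03. At an unadjusted p under 0.05 the counts were 2 higher and 3 lower, and voom on recovered reads called 1 higher. The gene that fell was Malt1, the protease partner of CARD9 and BCL10. Malt1 was at 59.0, 48.7 and 64.8 TPM in Egr2fl/fl and at 26.7, 32.2 and 22.0 TPM in Lyz2Cre/+.Egr2fl/fl. The groups were well apart, and the mean was 2.13-fold lower (log2 difference -1.07 ± 0.16, SE, 95% interval -1.44 to -0.70, limma adjusted p = 0.00972). It passed with each of the 6 libraries left out, but not with a block for the replicate number (limma adjusted p = 0.0585). Bcl10 was at 126.1 ± 4.92 and 124.2 ± 4.86 TPM (SD, n = 3) with overlapping ranges. The genes with the next smallest p were the NF-kB subunit gene Relb (80.2 ± 1.21 and 69.3 ± 0.25 TPM, limma adjusted p = 0.0658, and 0.0462 and 0.0414 with median-of-ratios and quantile scaling) and Tab2, an adaptor of the kinase TAK1 (131.8 ± 5.39 and 152.0 ± 3.83 TPM, limma adjusted p = 0.0793).

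In the calcium and NFAT arm, 1 of 11 genes rose, 0 fell and 10 did not pass (median log2 difference 0.00). Over all tested genes 4.38% rose and 1.87% fell, which applies to the phosphatases and brakes below too. At an unadjusted p under 0.05 the counts were 2 higher and 0 lower, and voom on recovered reads called 2 higher and 0 lower. Rcan1, a calcineurin inhibitor induced by NFAT, rose from 147.5 ± 18.4 to 212.8 ± 21.0 TPM, SD over 3 libraries each (limma adjusted p = 0.0331), and with 1 library left out it passed only without Egr2fl/fl replicate 2 or Lyz2Cre/+.Egr2fl/fl replicate 1, the adjusted p reaching up to 0.112. The calcium channel gene Itpr3 and the factor gene Nfatc2 had limma adjusted p of 0.117 and 0.334. Of 12 inhibitory phosphatases and brakes 0 passed by limma, and 1, Dok2, passed when only genes with a mean of 5 TPM or more were tested. The smallest p were those of the adaptor gene Dok2 (270.5 ± 19.8 and 197.3 ± 27.6 TPM), of Ptpn6, the phosphatase SHP-1 that inhibitory receptors recruit (488.9 ± 21.0 and 551.9 ± 23.7 TPM), and of Inpp5d, the lipid phosphatase SHIP1 (254.0 ± 11.0 and 280.4 ± 6.44 TPM). Their unadjusted p were 0.00395, 0.0137 and 0.0258, the adjusted p 0.0586, 0.125 and 0.177, and these were the 3 genes of the list with an unadjusted p under 0.05. Voom on recovered reads called 0 higher and 1 lower, again Dok2.

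Of 22 response genes of these receptors 17 were tested. Egr2 is itself on this list and is the deleted gene. Of the other 16 genes 0 rose and 1 fell, beside 4.38% and 1.87% of all tested genes, with a median log2 difference of 0.15. At an unadjusted p under 0.05 the counts were 2 higher and 3 lower, Egr2 left out, and voom on recovered reads called 0 higher and 4 lower, Egr2 included. The gene that fell by limma was Il1rn, the interleukin-1 receptor antagonist, at 338.1, 383.1 and 460.8 TPM in Egr2fl/fl and at 287.2, 240.1 and 227.0 TPM in Lyz2Cre/+.Egr2fl/fl. Its libraries were apart (log2 difference -0.64 ± 0.13, SE, limma adjusted p = 0.0328), and with 1 library left out it passed only without Egr2fl/fl replicate 1 or Lyz2Cre/+.Egr2fl/fl replicate 1, the adjusted p reaching up to 0.109. Ptgs2, the prostaglandin synthase COX-2, was at 144.8 ± 42.6 and 87.6 ± 9.38 TPM (SD, n = 3, limma adjusted p = 0.0981).

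**Figure D5:**
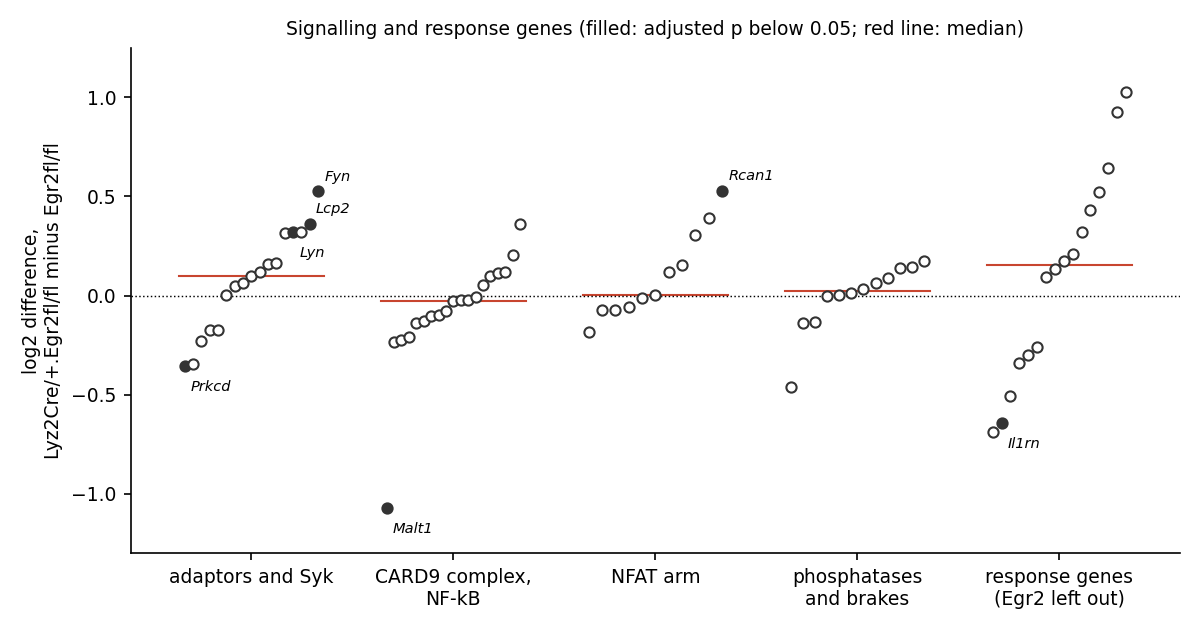
Log2 difference between Lyz2Cre/+.Egr2fl/fl and Egr2fl/fl of each tested gene in 5 lists of the pathway, Egr2 left out, ordered by value within a list; filled points passed an adjusted p of 0.05 by limma, and the red line is the median of the list. Malt1 is the lowest point shown at -1.07, and Fyn and Rcan1 are the highest filled points at 0.53 each.

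Among 10209 genes averaging 5 TPM or more, the 3 whose log2 values over the 6 libraries, centred on their mean, lay nearest to those of Clec7a were Gas7, Fam129b and Ccl9. Their Euclidean distances from Clec7a were 0.0445, 0.114 and 0.115 log2 units. Gas7, a cytoskeletal protein gene, fell from 14.1 to 8.44 TPM, Fam129b from 251.2 to 160.2 TPM and the chemokine gene Ccl9 from 589.3 to 366.5 TPM. In the same order Clec4d was the 69th and Clec4e the 520th nearest gene. Within a genotype Clec7a varied by under 2% of its mean, so this order reflects mostly the genotype difference.

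Lectin genes described here, among them Clec4d, Clec4e, Clec5a and Clec12a, are also made by neutrophils and monocytes. Of 16 neutrophil genes 8 were in the table, without Ly6g, Camp, Ltf and Cxcr2, and their summed level was lower in Lyz2Cre/+.Egr2fl/fl, at 220.3 to 223.0 against 168.7 to 186.0 TPM. Csf3r, which monocytes and macrophages express too, made up most of that sum (151.8 ± 8.11 and 132.9 ± 5.23 TPM, SD, n = 3, limma adjusted p = 0.136). The calprotectin genes S100a8 and S100a9, which neutrophils make in great amount, had means of 6.24 and 3.19 TPM in Egr2fl/fl and of 1.73 and 0.449 TPM in Lyz2Cre/+.Egr2fl/fl. Both fell (limma adjusted p = 0.0324 and 0.0239), on few reads, at least 35 and 17 over the 6 libraries. S100a9 was at 0 TPM in Lyz2Cre/+.Egr2fl/fl replicate 2. Acod1, an enzyme gene that activated macrophages also express, had means of 41.7 ± 8.63 and 20.3 ± 2.74 TPM (SD, n = 3) and fell as well, with a limma adjusted p of 0.0137, so that 3 of the 8 neutrophil genes fell and 0 rose. When single libraries were left out, S100a8 passed only without Egr2fl/fl replicate 2 (limma adjusted p = 0.0251), S100a9 only without Lyz2Cre/+.Egr2fl/fl replicate 2 or 3 (0.0362 and 0.0486), and Acod1 in every case but without Lyz2Cre/+.Egr2fl/fl replicate 3 (0.0511). Of 12 monocyte genes 10 were tested and 0 passed by limma (2 had an unadjusted p under 0.05), with summed levels of 930.9 to 1064 and 882.9 to 1130 TPM that overlapped. The dendritic cell genes, 10 of 15 in the table, summed to 121.6 to 167.5 and 157.8 to 180.0 TPM, with Xcr1 and Siglech not among the genes analysed. The general macrophage gene Adgre1 (F4/80) rose from 923.9 ± 48.4 to 1230 ± 42.3 TPM (limma adjusted p = 0.0063), and Lyz2, the gene that carries Cre, fell from 10719 ± 838 to 6502 ± 118 TPM (limma adjusted p = 0.0013). Their part in the levels of the lectin genes was not tested.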

How the data were processed

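Directional libraries were made from RNA of sorted liver macrophages of 3 mice per genotype, per the labels, which were followed. The paper's methods differ: they list a directional kit only for a different sort, while remaining bulk libraries used Nextera XT after SMART-Seq HT cDNA synthesis. The submitters' processing notes name Trimmomatic 0.39.0, HISAT2 2.2.1, featureCounts 2.0.1 and GRCm38. The authors removed duplicates, which can lower the values of abundant genes, and deposited the values as TPM, 1 column per library. A TPM value is a share of its library and can move when other genes move. Library sums were 996893 to 997633.

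Genotype differences of log2(TPM + 1) were tested in limma 3.58.1 (R 4.3.3; lmFit, eBayes with a mean-variance trend), 2-sided, over the 13777 genes averaging 1 TPM or more, at a Benjamini-Hochberg adjusted p of 0.05. This scale understates changes of low genes. Intervals are 95% intervals, folds are ratios of mean TPM, and ± gives the SD over 3 libraries of a TPM level or ratio, or the SE of a log2 difference. p-values measure the spread between these mice only. Whole reads were recovered for 13886 of 13886 genes from the TPM steps (tolerance 0.001 of a read). These are lower bounds, because a common factor of a gene's reads cannot be recovered.

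Members and gene lists were chosen with earlier results of these data known. Named were all members, Egr2, Itgax, up to 6 genes of each pathway list and of the other lectins that passed with the smallest p (the 3 smallest p where fewer passed) and the 3 genes nearest to Clec7a. Clec4b1 and other genes of the clusters, Syk, Fcer1g, Tyrobp, Bcl10, Gm13562 and single marker genes were added after their values were seen. Promoters are from the RefSeq table and coordinates from GENCODE vM21. The script was tested on simulated data. Alternatives covered the pseudocount (0.1, 5), the filter (none, 5 TPM), median-of-ratios and quantile scaling, eBayes without trend or with robust variances, a replicate block, voom on recovered reads and each library left out.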

Additional observations from a re-analysis of the deposited data

How the results depend on the processing

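Of 160 values of the 10 members under 16 alternatives, 146 kept their direction and their side of the threshold, 11 lost the call and 3 changed sign. Clec7a passed in all 16, Clec4d in 12 and Clec4e in 9. The number of members that fell was 3 in the fit reported, 1 (Clec7a) without the mean-variance trend and 1 (Clec7a) with a replicate block, and between 1 and 3 with 1 library left out. In these 2 alternatives the limma adjusted p was 0.0641 and 0.0805 for Clec4d and 0.0876 and 0.104 for Clec4e. The whole table gave 603 higher and 257 lower genes, 160 lower without the trend, 301 higher and 130 lower with the replicate block, and between 303 and 437 higher and between 136 and 202 lower with 1 library left out. The study calls the control mice littermates, but the sources used here do not say whether a replicate number marks a shared litter or batch. Replicate numbers here are those of the sample labels. The deposited columns name Egr2fl/fl replicate 3 as WT4 and skip a control number. The block therefore paired it with Lyz2Cre/+.Egr2fl/fl replicate 3 by label only. Deviations of libraries with the same label number correlated at -0.03, 0.07 and -0.01 across genes, and those with different numbers at between -0.08 and 0.09. With 3 mice per genotype, these correlations cannot show whether the mice were paired. The share of higher genes among all calls was 70.1%, 62.9% with median-of-ratios and 63.8% with quantile scaling.

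Clec4a1 was at -0.017 on the log2 scale with median-of-ratios scaling and between -0.056 and 0.13 with 1 library left out. Tyrobp was at -0.0090 with median-of-ratios and -0.0095 with quantile scaling. With 1 library left out Bcl10 was between -0.052 and 0.0053 and Clec4a4 between -0.31 and 0.18. Of the pathway counts, the number of adaptors and kinases that rose ranged from 0 to 4 over the alternatives, and that of CARD9 complex and NF-kB genes that fell was 0 with the replicate block. The cause of these changes was not tested. Fits with 1 library left out or with a block also have fewer degrees of freedom, and the part of this was not tested either. With 3 libraries per genotype, changes as small as the intervals of the 7 members that did not pass could not be told from none. Low genes such as Clec4a4, S100a8 and S100a9 rest on few reads, at least 59, 35 and 17 over all libraries.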
